A study of Mus musculus with 6 samples.

Results

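The let-7 family and miR-98 were followed in extracellular vesicles (EVs), small membrane sacs shed by cells. The EVs came from primary hepatocytes of ApoE-/- mice, which lack apolipoprotein E, a ligand for the clearance of lipoproteins from blood, and develop atherosclerosis readily. The members were the 10 listed mature miRNAs named let-7k, miR-98-5p and the 5p products of let-7a to let-7g and of let-7i, out of 474 miRNAs listed in each library. They were picked out by name alone, though the family was taken up with earlier results of these data known. HFHC-EV denotes the 3 libraries from mice fed HFHC, as the labels abbreviate the diet, and Chow-EV the 3 libraries from mice on chow. All 6 carry the ApoE knockout, so no library shows the family on a wild-type background. The labels call the 3 libraries of a diet biological replicates. How many mice stood behind each, and their age, is not given in the sources used here.

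MicroRNAs of the let-7 family guide Argonaute proteins to messenger RNAs that pair with their seed, bases 2 to 8 from the 5′ end, and lower the output of those messengers. The family was first known for timing development in worms, and in mammals it represses growth-promoting genes such as Hmga2, Myc and the Ras genes. Lin28 proteins block the maturation of let-7 precursors in embryonic and many tumour cells, whereas adult tissues, liver included, hold much mature let-7. In mice, let-7 also acts on insulin signalling and glucose handling.

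The mature sequences are shown because every comparison below is between RNAs that differ at few bases. They come from RefSeq on GRCm38.p6, where all 10 members matched by name, and capitals mark the seed. The prefix mmu, for mouse, is left out hereafter.
mmu-let-7a-5p: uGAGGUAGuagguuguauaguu
mmu-let-7b-5p: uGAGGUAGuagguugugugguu
mmu-let-7c-5p: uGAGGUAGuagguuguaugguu
mmu-let-7d-5p: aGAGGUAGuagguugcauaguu
mmu-let-7e-5p: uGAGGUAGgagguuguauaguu
mmu-let-7f-5p: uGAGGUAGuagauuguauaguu
mmu-let-7g-5p: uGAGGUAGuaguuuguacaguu
mmu-let-7i-5p: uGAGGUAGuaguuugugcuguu
mmu-let-7k: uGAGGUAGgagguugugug
mmu-miR-98-5p: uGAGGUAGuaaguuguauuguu

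All 10 members share 1 seed, and among the 348 listed miRNAs with a RefSeq mature sequence no other miRNA had it. Outside the seed the members differ as follows, with positions counted from 1 at the 5′ end and the base of let-7a-5p given first. A change of 1 base separates let-7a-5p from let-7c-5p (A19G), from let-7e-5p (U9G) and from let-7f-5p (G12A). let-7b-5p carries A17G and A19G, so it is 1 base from let-7c-5p, and let-7d-5p carries U1A and U16C. let-7g-5p carries G12U and U18C, miR-98-5p G11A and A19U, and let-7i-5p is the most distant with G12U, A17G, U18C and A19U. let-7k, which is 19 bases long, carries U9G, A17G and A19G over that length. Of the 45 pairs of members, 5 are 1 substitution apart. How the authors treated mismatched reads is not given in the sources used here, so reads may be shared between such members.

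The hairpins of the members lie on 8 chromosomes of GRCm38, placed by name in GENCODE M21. Mirlet7a-1 (chromosome 13, 48538179 to 48538272), Mirlet7f-1 (48537829 to 48537917) and Mirlet7d (48536012 to 48536114) stand within 2261 bp on the minus strand, in exons of the lincRNA 6720427I07Rik. Mirlet7c-2 (chromosome 15, 85706603 to 85706697) and Mirlet7b (85707319 to 85707403) stand within 801 bp in exons of the noncoding transcript Lncppara. Mirlet7c-1 (chromosome 16, 77599657 to 77599750) lies in an intron of Mir99ahg beside Mir99a, and Mirlet7a-2 (chromosome 9, 41536716 to 41536811) lies in an intron of 3110039I08Rik, downstream of Mir100. Mirlet7e (chromosome 17, 17830352 to 17830444) lies between Mir99b and Mir125a in an intron of Spaca6, and these 3 hairpins span 692 bp. Mirlet7f-2 (chromosome X, 151912346 to 151912428) and Mir98 (151913214 to 151913321) lie in an intron of Huwe1, a ubiquitin ligase gene. Mirlet7g (chromosome 9, 106178840 to 106178927) lies in an intron of Wdr82, Mirlet7i (chromosome 10, 122985640 to 122985724) in an exon of a transcribed pseudogene, and Mir7k (chromosome 5, 147283189 to 147283298) overlaps no other annotated gene. Since 2 hairpins each encode let-7a, let-7c and let-7f, the values of these members cannot be traced to 1 of the hairpins.

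The deposited values are RPM, reads scaled to a common library total that takes in far more than the listed miRNAs. Listed miRNAs made up 0.2202% to 0.3441% of that total in HFHC-EV and 0.1375% to 0.2081% in Chow-EV. One read was worth 0.0497 to 0.0523 RPM, which gave 27673 to 65775 miRNA reads per library, and 13397 to 24902 of these belonged to the 10 members. Markers of the labelled hepatocyte origin were present but low beside let-7. The 4 hepatocyte miRNAs of the marker list summed to 13.5 to 27.3 RPM in HFHC-EV and 5.33 to 17.0 RPM in Chow-EV, and miR-148a-3p was at 0 in 3 libraries. Of these, miR-192-5p rose in HFHC-EV (12.35 to 13.0 RPM, against 4.14 to 5.79 RPM in Chow-EV), while miR-122-5p reached 14.0 RPM in HFHC-EV replicate 1 and 10.5 RPM in Chow-EV replicate 1 and was at most 1.09 RPM elsewhere. All 3 erythroid markers had reads, with sums of 11.2 to 142 RPM in HFHC-EV and 2.69 to 107 RPM in Chow-EV, the highest in the libraries numbered 1. Reads were found for 4 of 5 leukocyte markers (1.35 to 6.10 RPM in HFHC-EV, 3.53 to 7.99 RPM in Chow-EV), 2 of 2 endothelial markers (2.19 to 9.49 and 0.497 to 5.94 RPM) and 3 of 4 mesenchymal markers (1.77 to 3.76 and 0.103 to 1.74 RPM). Their part in the results below was not tested. In such bulk libraries, fewer vesicles from a cell type and less RNA per vesicle cannot be told apart.

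The first question was how much of the vesicle miRNA the family made up under each diet. The 10 members summed to 1078.5, 1129.5 and 1303 RPM in HFHC-EV replicates 1, 2 and 3, against 686, 744 and 851 RPM in Chow-EV replicates 1, 2 and 3. Every HFHC-EV library lay above every Chow-EV library, and the HFHC-EV mean was 1.54 times the Chow-EV mean. Libraries with the same number varied together over all miRNAs, so their ratio was also taken. HFHC-EV over Chow-EV, the summed family stood at 1.57, 1.52 and 1.53 in pairs 1, 2 and 3, a range narrower than that of the other listed miRNAs, whose sums stood at 1.57, 1.70 and 1.74. As a share of all listed miRNA signal, the family held 44.8%, 51.3% and 37.9% in HFHC-EV, against 44.8%, 54.1% and 40.9% in Chow-EV. These shares overlapped between the diets, with means of 44.7 ± 6.72% and 46.6 ± 6.81% (SD, n = 3 each), and they followed the replicate number more closely than the diet.

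**Figure D1:**
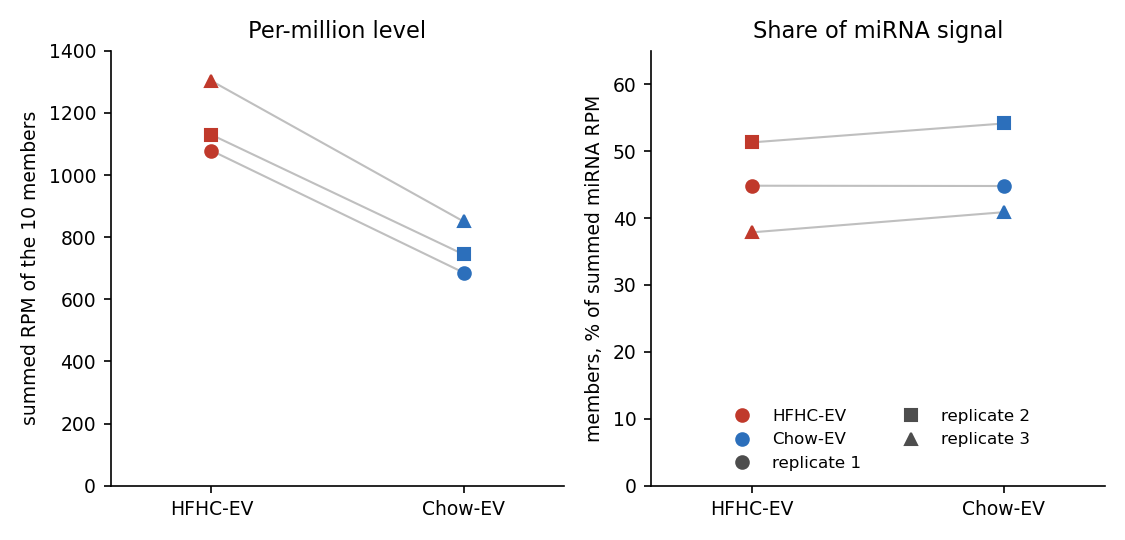
Summed RPM of the 10 members (left) and their percentage of the summed RPM of all listed miRNAs (right), 1 point per library, with lines joining libraries of the same replicate number. The HFHC-EV sums lie between 1078.5 and 1303 RPM, above the Chow-EV sums of 686 to 851 RPM, while the shares of both diets overlap between 37.9% and 54.1%.

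A few members carried most of the family in every library, and their order of abundance was the same in all 6: let-7c-5p led, then came let-7a-5p, then let-7f-5p and then let-7b-5p, with 73.8% to 76.9% of the family between them. let-7c-5p, which in mouse macrophages has been linked to the choice between activation states, stood at 291, 316 and 350.3 RPM in HFHC-EV and at 170.2, 189.8 and 216 RPM in Chow-EV. The lowest HFHC-EV library was well above the highest Chow-EV library. The means were 319 ± 29.9 and 192 ± 23.2 RPM (SD, n = 3 each), a 1.66-fold difference.

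let-7a-5p, the member whose sequence is the one conserved from worms to humans, stood at 209.6, 220.2 and 243 RPM in HFHC-EV and at 127, 143 and 151 RPM in Chow-EV. The diets did not overlap here either, and the means differed 1.60-fold. let-7f-5p, which has been described as pro-angiogenic in human endothelial cells, stood at 176, 182 and 201 RPM in HFHC-EV and at 121, 132 and 144 RPM in Chow-EV, a smaller difference of 1.41-fold with no overlap. let-7b-5p, which as an extracellular RNA can activate Toll-like receptors on mouse neurons, stood at 147, 151 and 180.2 RPM in HFHC-EV and at 96.1, 100.2 and 116 RPM in Chow-EV, a 1.53-fold difference. In these 4 members replicate 3 was the highest library of both diets and replicate 1 the lowest.

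The middle group held let-7d-5p, let-7i-5p and let-7g-5p, at 40.8 to 121 RPM. let-7d-5p, known in human lung fibroblasts and epithelium for holding back fibrosis genes, stood at 88.7, 84.9 and 103 RPM in HFHC-EV and at 59.3, 59.4 and 70.1 RPM in Chow-EV. let-7i-5p, which represses the lipopolysaccharide receptor in human bile duct cells, stood at 77.8, 82.9 and 121 RPM in HFHC-EV and at 46.0, 51.1 and 69.7 RPM in Chow-EV. For both members the HFHC-EV libraries lay above all Chow-EV libraries, but let-7i-5p had a wide spread within a diet because replicate 3 stood apart from the other two. let-7g-5p, reported to lower the oxidised-LDL receptor gene in human smooth muscle cells, stood at 57.5, 58.0 and 64.0 RPM in HFHC-EV and at 40.8, 41.0 and 46.6 RPM in Chow-EV. Its 1.398-fold difference was the smallest among the 7 members above 25 RPM, and it had the narrowest spread of them in RPM.

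let-7e-5p, miR-98-5p and let-7k were the low members. let-7e-5p, an Akt-dependent regulator of the lipopolysaccharide response in mouse macrophages, stood at 17.9, 21.1 and 22.1 RPM in HFHC-EV and at 17.6, 19.7 and 22.8 RPM in Chow-EV. Its values overlapped completely between the diets, with means of 20.4 ± 2.16 and 20.03 ± 2.62 RPM (SD, n = 3 each), from 1171 reads in HFHC-EV and 1181 in Chow-EV. miR-98-5p stood at 13.4, 14.0 and 18.2 RPM in HFHC-EV and at 7.94, 7.70 and 13.2 RPM in Chow-EV, so that the lowest HFHC-EV library was just above Chow-EV replicate 3. let-7k had 1 read in HFHC-EV and 1 in Chow-EV, under the floor of 3 reads, and no difference was detectable for it at this depth.

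**Figure D2:**
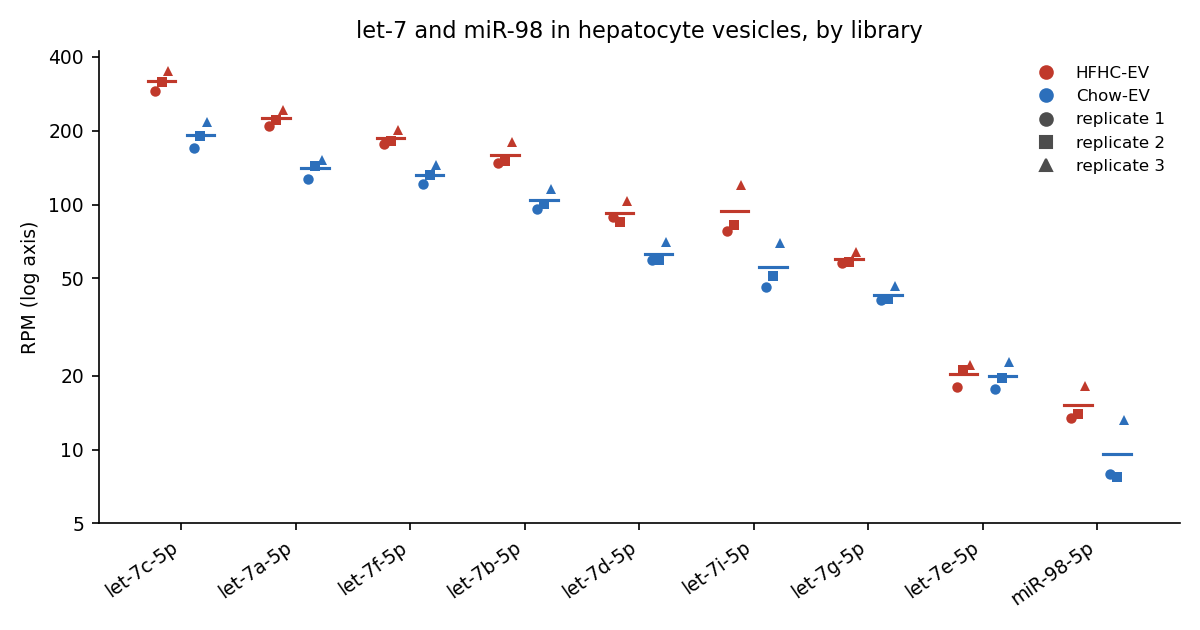
RPM of the 9 members with a mean of at least 1 RPM (log axis), with HFHC-EV left of Chow-EV for each member, 1 point per library and bars at the means. In 8 members all HFHC-EV points lie above all Chow-EV points, and let-7e-5p at 17.6 to 22.8 RPM is the one where they overlap.

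The RPM levels were tested with limma-trend on log2(RPM + 1) over the 104 miRNAs that averaged 1 RPM or more, 9 of them members. let-7k lay under that filter. In this fit, with a Benjamini-Hochberg adjusted p of 0.05 as the limit, 6 of the 9 tested members rose in HFHC-EV and none fell, while 24.0% of all tested miRNAs rose and 4.81% fell. The largest log2 fold change among the 6 was 0.73 for let-7c-5p (SE 0.119, limma adjusted p = 0.00907). let-7a-5p followed with 0.67 (SE 0.0982, limma adjusted p = 0.0063), and the values of let-7b-5p, let-7d-5p, let-7f-5p and let-7g-5p were 0.61, 0.54, 0.49 and 0.47 (limma adjusted p between 0.0168 and 0.0235). let-7i-5p had 0.74 and miR-98-5p 0.63, with larger standard errors of 0.24 and 0.251 (limma adjusted p = 0.0766 and 0.113). let-7e-5p had a log2 fold change of 0.03 (SE 0.145, limma adjusted p = 0.921). Without the filter, where 422 miRNAs entered and 14.2% rose and 5.21% fell, the count of members that rose was again 6.

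All HFHC-EV libraries were above all Chow-EV libraries in 8 of the 9 tested members, against 42.3% of all tested miRNAs (6.73% were lower without overlap, 49.0% either way). The same 8 members were higher in HFHC-EV in every same-numbered pair, as were 70.2% of all tested miRNAs. The number of members that rose depended on the libraries, as did the share of all tested miRNAs. Without HFHC-EV replicate 1, 2 or 3, 4, 2 and 4 members rose, beside 13.8%, 13.8% and 17.8% of all tested miRNAs. Without Chow-EV replicate 1, 2 or 3, 2, 1 and 8 members rose, beside 15.3%, 11.4% and 31.4%. Once the replicate number entered as a block, 8 members rose, let-7i-5p and miR-98-5p among them, while 66.3% of all tested miRNAs rose. That fit rests on a variance pooled over all tested miRNAs (208 total degrees of freedom), so its p-values do not reflect the spread of each member over the 3 pairs.

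Most tested miRNAs were higher in RPM in HFHC-EV, and the family moved with them. The median log2 fold change was 0.61 over the 9 members and 0.51 over all 104 tested miRNAs. TMM scaling of the libraries lowered the median of all tested miRNAs to 0.07 and that of the members to −0.04. On that scale no member rose or fell in limma-trend, while 0.962% of all tested miRNAs rose and 5.77% fell. At an unadjusted p under 0.05 in the same fit, 0 members were higher and 1, let-7e-5p, was lower. By that rule 12 of all 104 tested miRNAs were higher and 13 lower. let-7c-5p, let-7a-5p, let-7i-5p and miR-98-5p kept log2 fold changes of 0.08, 0.03, 0.10 and 0.04, and those of let-7b-5p, let-7d-5p, let-7f-5p and let-7g-5p lay below 0, at −0.04, −0.10, −0.16 and −0.16. let-7e-5p stood lowest at −0.59 (SE 0.191, limma adjusted p = 0.136). It fell in the TMM-scaled fit with the replicate block (SE 0.111, limma adjusted p = 1.67e-04), where no other member passed and 29.8% of all tested miRNAs rose and 19.2% fell, and in DESeq2 on recovered reads (log2 fold change −0.66, adjusted p = 0.0222), where 6.73% rose and 11.5% fell.

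**Figure D3:**
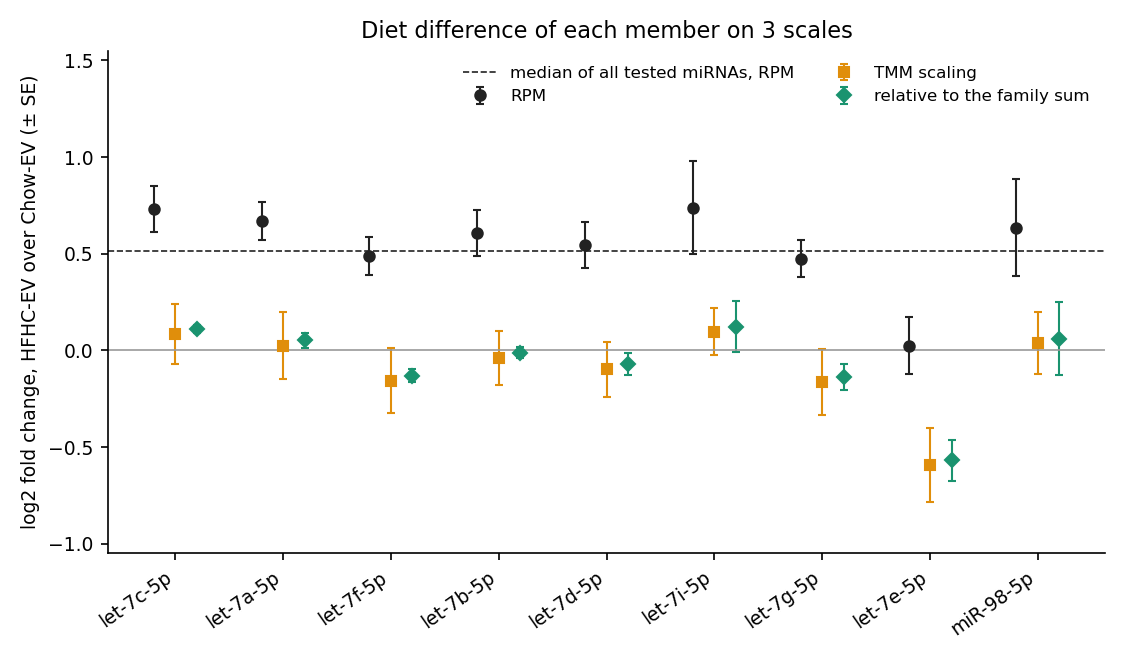
log2 fold change of each member, HFHC-EV over Chow-EV, with its standard error, in RPM, after TMM scaling, and relative to the family sum, with a dashed line at the median of 0.51 over all tested miRNAs in RPM. In RPM the members other than let-7e-5p lie between 0.47 and 0.74, and on the other scales between −0.16 and 0.12, while let-7e-5p lies at 0.03 in RPM, −0.59 after TMM scaling and −0.57 relative to the family.

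The next comparison asked whether the make-up of the family differed between the diets, whatever its total. let-7c-5p took 26.9%, 28.0% and 26.9% of the family in HFHC-EV and 24.8%, 25.5% and 25.4% in Chow-EV. let-7e-5p took 1.66%, 1.87% and 1.69% in HFHC-EV and 2.57%, 2.64% and 2.68% in Chow-EV. In both members the diets did not overlap, and the direction was opposite. The spread of the let-7e-5p share, an SD of 0.11 percentage points in HFHC-EV and 0.0583 in Chow-EV, was about as small as the counting error of a library (0.0818 to 0.137 points).

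let-7f-5p took 16.3%, 16.1% and 15.4% of the family in HFHC-EV and 17.6%, 17.7% and 17.0% in Chow-EV, and let-7g-5p took 5.33%, 5.14% and 4.91% in HFHC-EV and 5.95%, 5.51% and 5.48% in Chow-EV, again without overlap. let-7a-5p had a larger share in HFHC-EV in each of the 3 pairs (means 19.2% and 18.5%), and let-7d-5p a smaller one in all 3 (7.89% and 8.29%), but both overlapped between the diets. let-7i-5p was also larger in all 3 pairs (7.93% and 7.25%), with a share of 9.26% in HFHC-EV replicate 3 and 8.20% in Chow-EV replicate 3 above the other libraries of each diet. The shares of let-7b-5p (13.6% and 13.7%) and miR-98-5p (1.29% and 1.25%) differed by less than their spread between libraries. Without overlap, 1 of 9 tested members was higher and 3 were lower, against 16.3% of all tested miRNAs in each direction and 32.7% either way on the same scale. The members are parts of the sum used for scaling, so a larger share of 1 leaves less for the others. The other tested miRNAs are not tied in this way.

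**Figure D4:**
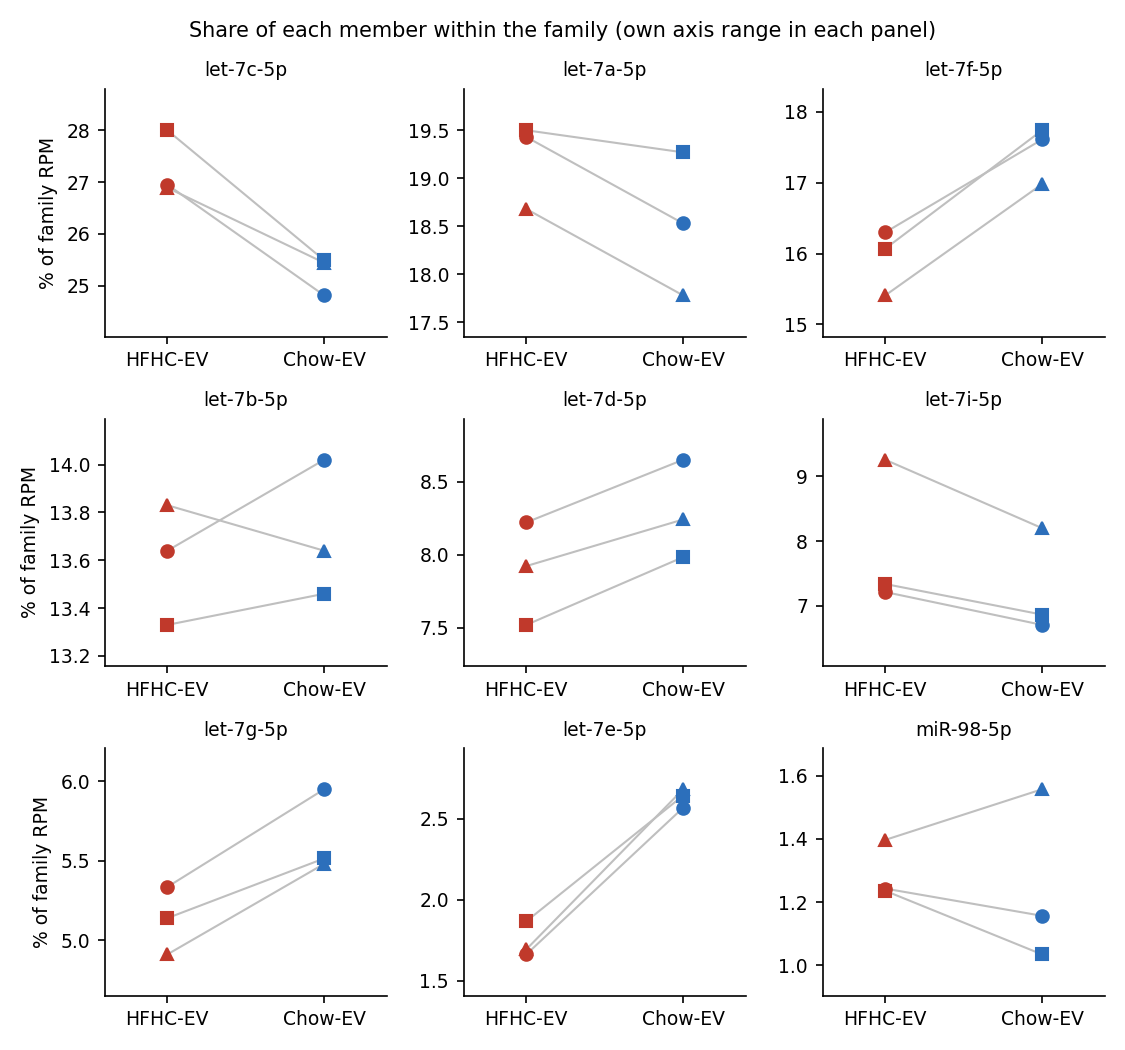
Share of each member in the summed RPM of the 10 members, 1 point per library, with HFHC-EV left of Chow-EV, lines joining libraries of the same number, and an axis range of its own in each panel. let-7c-5p is higher in HFHC-EV (26.9% to 28.0% against 24.8% to 25.5%), and let-7e-5p is lower (1.66% to 1.87% against 2.57% to 2.68%).

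Scaled to the family sum and fitted over all 104 miRNAs, let-7c-5p was higher and let-7e-5p lower at an adjusted p under 0.05, and no other member passed, while 5.77% of all tested miRNAs were higher and 7.69% lower. The log2 fold change relative to the family was 0.11 for let-7c-5p (SE 0.0231, limma adjusted p = 0.0329) and −0.57 for let-7e-5p (SE 0.106, limma adjusted p = 0.0236). let-7f-5p had −0.13 (limma adjusted p = 0.0651) and let-7g-5p −0.14 (limma adjusted p = 0.284). The same 2 members, and no other, passed in edgeR on recovered reads (adjusted p = 0.0423 for both, where 5.77% were higher and 6.73% lower). They also passed when let-7c-5p was left out of the sum (limma adjusted p = 0.0299 for both, with 6.73% higher and 7.69% lower). Leaving out any 1 library ended both calls, with limma adjusted p between 0.0566 and 0.104 for let-7c-5p and between 0.0643 and 0.11 for let-7e-5p. In these fits 0% to 1.98% of all tested miRNAs were higher and 1.75% to 3.96% lower. The log2 fold changes stayed between 0.09 and 0.12 for let-7c-5p and between −0.62 and −0.54 for let-7e-5p. With the replicate block let-7a-5p and let-7i-5p were also higher (limma adjusted p = 0.0401 and 0.0395) and let-7f-5p lower (limma adjusted p = 3.19e-06). In that fit 33.7% of all tested miRNAs were higher and 20.2% lower. Its variance was again pooled over all tested miRNAs (208 total degrees of freedom). edgeR with the block called let-7c-5p higher and let-7e-5p and let-7f-5p lower, with 25.0% of all tested miRNAs higher and 19.2% lower.

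Within pairs of the same number, most members held close ratios. HFHC-EV over Chow-EV, let-7c-5p stood at 1.71, 1.67 and 1.62 in pairs 1, 2 and 3, and let-7b-5p at 1.53, 1.502 and 1.554. let-7e-5p stood at 1.02, 1.07 and 0.968, below every ratio of the other tested members. The lowest ratio among those was 1.37, for let-7g-5p in pair 3, and the widest range was that of miR-98-5p, from 1.38 to 1.81.

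**Figure D5:**
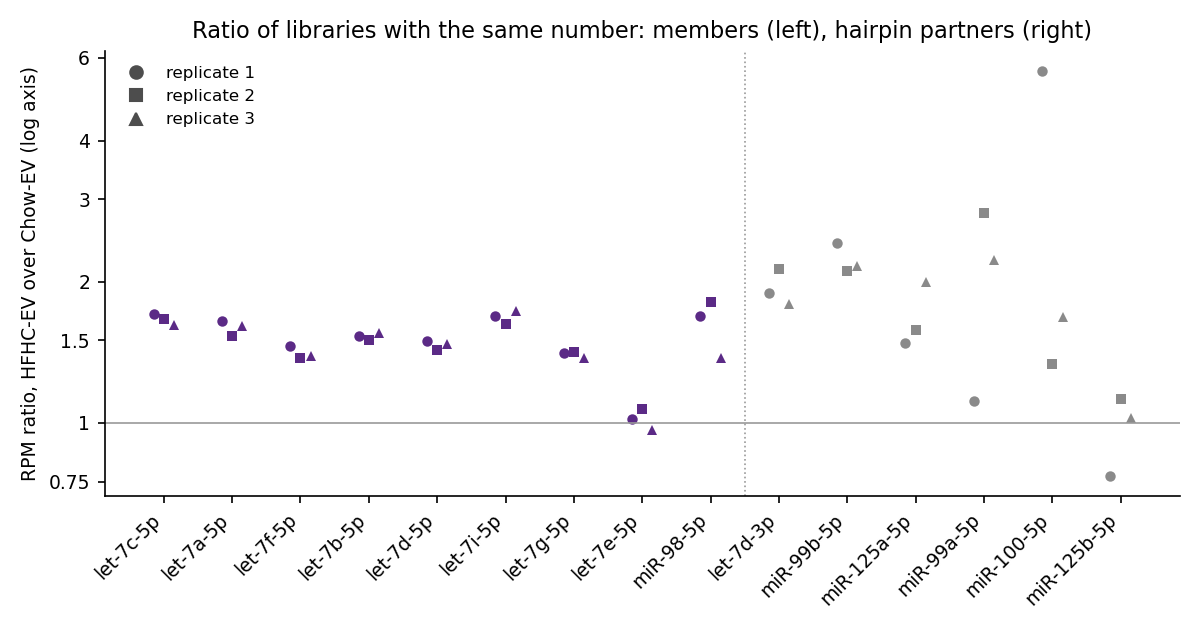
Ratio of RPM, HFHC-EV over Chow-EV, between libraries with the same replicate number (log axis), for 9 members left of the dotted line and for miRNAs from the same hairpins or hairpin clusters right of it. let-7e-5p lies at 0.968 to 1.07, the other members at 1.37 to 1.81, and the let-7e neighbours miR-99b-5p and miR-125a-5p at 1.48 to 2.41.

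The hairpin of let-7e lies between those of miR-99b and miR-125a, and the 3 can come from 1 primary transcript. The sequences of the neighbours, with the seed in capitals, show that neither carries the let-7 seed.
miR-99b-5p: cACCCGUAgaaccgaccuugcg
miR-125a-5p: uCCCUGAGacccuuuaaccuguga
miR-99b-5p, of the family that targets the mTOR kinase gene, stood at 89.7, 93.4 and 146 RPM in HFHC-EV and at 37.2, 44.3 and 67.8 RPM in Chow-EV. miR-125a-5p, a repressor of inflammatory and p53-pathway messengers, stood at 63.3, 66.2 and 72.0 RPM in HFHC-EV and at 42.7, 42.0 and 36.0 RPM in Chow-EV. Both were higher in HFHC-EV without overlap, as were 42.3% of all tested miRNAs, while let-7e-5p overlapped between the diets. They rose in the RPM fit, by a log2 fold change of 1.14 for miR-99b-5p (SE 0.304, limma adjusted p = 0.0437) and 0.73 for miR-125a-5p (SE 0.107, limma adjusted p = 0.0063), and after TMM scaling these were 0.50 and 0.09 (limma adjusted p = 0.125 and 0.95). With the block as well, miR-99b-5p rose on the TMM scale (limma adjusted p = 1.67e-04), where 29.8% of all tested miRNAs did.

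Ratios between the 3 miRNAs of this cluster do not depend on how libraries are scaled. let-7e-5p over miR-99b-5p was 0.2, 0.226 and 0.151 in HFHC-EV and 0.474, 0.444 and 0.336 in Chow-EV. let-7e-5p over miR-125a-5p was 0.284, 0.319 and 0.307 in HFHC-EV and 0.412, 0.468 and 0.634 in Chow-EV. Both ratios were lower in HFHC-EV without overlap, with differences of −1.13 and −0.71 in mean log2 ratio. Each had a 2-sided exact permutation p of 0.1, the smallest that 3 against 3 libraries can give, and an adjusted p of 0.18 over the 9 ratios computed. let-7c-5p over let-7e-5p, with hairpins on different chromosomes, was higher in HFHC-EV by 0.71 in mean log2 ratio. A difference of the size seen against miR-125a-5p was thus not confined to this cluster. The ratio of miR-99b-5p to miR-125a-5p was higher in HFHC-EV in all 3 same-numbered pairs but overlapped between the diets (1.62 ± 0.359 in HFHC-EV and 1.27 ± 0.54 in Chow-EV, SD, n = 3 each, exact permutation p = 0.3).

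The other clusters gave partners that behaved differently from the abundant members beside them. miR-100-5p, encoded beside Mirlet7a-2, stood at 0.574, 21.3 and 9.99 RPM in HFHC-EV and at 0.102, 15.9 and 5.95 RPM in Chow-EV. miR-99a-5p, encoded beside Mirlet7c-1, stood at 1.88, 0.417 and 18.3 RPM in HFHC-EV and at 1.69, 0.149 and 8.22 RPM in Chow-EV. miR-125b-5p, which has a hairpin in each of these host transcripts, stood at 1.30, 2.24 and 15.8 RPM in HFHC-EV and at 1.69, 1.99 and 15.4 RPM in Chow-EV. All 3 followed the replicate number. The lowest library held 2 reads of miR-100-5p (Chow-EV replicate 1) and 3 of miR-99a-5p (Chow-EV replicate 2), against 408 and 350 reads in the highest, whereas the highest library of let-7a-5p was 1.92 times the lowest and that of let-7c-5p 2.06 times. None of the 3 passed the RPM test (limma adjusted p between 0.872 and 0.983). Of the 5 partners in all, 2 rose and none fell, where 24.0% of all tested miRNAs rose. With the replicate block 4 rose, miR-99a-5p and miR-100-5p in addition, where 66.3% of all tested miRNAs rose. After TMM scaling with the block, the log2 fold changes were 0.12 for miR-99a-5p and 0.071 for miR-100-5p (limma adjusted p = 0.583 and 0.718), and miR-125b-5p fell (log2 fold change −0.51, limma adjusted p = 0.00617).

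The opposite strands of the let-7 hairpins were scarce. Of 12 such 3p products looked for, 7 were listed, and 1, let-7d-3p, had a mean of at least 1 RPM. let-7d-3p stood at 15.8, 15.6 and 25.1 RPM in HFHC-EV and at 8.35, 7.36 and 14.0 RPM in Chow-EV (log2 fold change 0.88, SE 0.308, limma adjusted p = 0.0922). It was higher in HFHC-EV without overlap, as were 42.3% of all tested miRNAs. It rose in the RPM fit with the replicate block and its pooled variance (limma adjusted p = 1.75e-09), as did 66.3% of all tested miRNAs. After TMM scaling its log2 fold change was 0.28, which did not pass without the block (limma adjusted p = 0.395) or with it (limma adjusted p = 0.0596). Relative to let-7d-5p of the same hairpin, let-7d-3p was at 0.178, 0.184 and 0.243 in HFHC-EV and at 0.141, 0.124 and 0.199 in Chow-EV, higher in HFHC-EV in all 3 pairs but overlapping between the diets (2-sided exact permutation p = 0.3).

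The other listed 3p products had 0 to 28 reads over all 6 libraries, and miR-98-3p had none. let-7a-1-3p and let-7c-2-3p have the same mature sequence, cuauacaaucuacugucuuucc, and carried identical reads in every library, 19 in HFHC-EV, all in replicate 3, and 9 in Chow-EV, 8 of them in replicate 3. The same held for all 5 pairs of listed miRNAs with identical sequences. These pairs are not all separate sequences, since miR-465a-3p, miR-465b-3p and miR-465c-3p share 1, and they had 5 to 28 reads. As far as these few reads show, reads of such a sequence were entered under each of its names.

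Across the 6 libraries the members varied together, let-7e-5p less so. Pearson's r between members on log2(RPM + 1) had a median of 0.963 over 36 pairs of members, and for let-7e-5p it ran from 0.345 to 0.601. These correlations describe 6 libraries that share diet and replicate number. Of the 86 other named miRNAs tested, those whose pattern was most like that of the summed family were miR-31-5p (r = 0.989), miR-99b-5p (0.985), miR-34a-5p (0.98), miR-7a-5p (0.97) and miR-15b-5p (0.966), over 6 libraries. miR-31-5p stood at 81.3, 79.3 and 112 RPM in HFHC-EV and at 33.7, 37.8 and 57.5 RPM in Chow-EV. Its HFHC-EV libraries thus lay above its Chow-EV libraries, as in the family sum and in 42.3% of all tested miRNAs.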

How the data were processed

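Small RNA of 18 to 30 nt from hepatocyte EVs was sequenced, per the labels' protocols. The submitters' processing notes name Bowtie2 and GRCm38.p6. For trimming, the miRNA annotation, the aligner's settings and reads that match several miRNAs, the procedure was not given in the sources used here. The authors deposited RPM values, 1 table per library. Each library's values were whole multiples of 1 step (100% of values to within 0.1 of a read). Whole reads could thus be recovered, with denominators of 19114759 to 20122476 reads. Reads without molecular identifiers are not independent molecules, so floors and counting errors cover counting only.

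The design assumed RPM, and limma-trend (limma 3.58.1, R 4.3.3) was fitted to log2(RPM + 1) without covariates, keeping miRNAs that averaged 1 RPM or more. Fold changes on that scale understate the change of low miRNAs. A second fit scaled each library to its sum of the 10 members. edgeR 4.0.16 and DESeq2 1.42.0 on recovered reads, TMM scaling, other pseudocounts, no filter, the replicate block and leaving out libraries were alternatives. In edgeR's quasi-likelihood test, 1 miRNA was called higher and 5 lower. limma-trend with and without the block and edgeR were tested on simulated data. That simulation had no pairing by replicate number and no shift common to most miRNAs, so it does not cover these features of the libraries. No p is given for the summed RPM of the members, for the share of the family or for the percentage shares of members. The fits relative to the family sum in effect test the log2 share of each member, and their p-values are given.

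Libraries with the same number deviated together from the diet means (r = 0.945, 0.894 and 0.946 over 104 miRNAs), so the numbers pair the libraries, from the data and not from a label. Libraries with different numbers gave r of −0.819 to 0.0265. Deviations from a diet mean cancel over its libraries, so these lower values add no separate evidence of pairing. Without the replicate block, the limma p-values measure the spread between libraries, including the variation that same-numbered libraries share. The limma fits with the block take most or all of their variance from all tested miRNAs together. They had 208 total degrees of freedom in RPM and relative to the family sum, and 21 after TMM scaling. Their p-values do not measure the spread of each miRNA alone. The members and lists were chosen with earlier results of these data known. All 10 members are named, with hairpin partners, 3p products, the markers, and the 5 named miRNAs most correlated with the summed family.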

Additional observations from a re-analysis of the deposited data

How the results depend on the processing

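The RPM calls depended on the scaling and the libraries. Against 25 miRNAs higher and 5 lower, limma gave 69 and 8 with the replicate block, 60 and 22 without the filter, and 1 higher with TMM scaling, as did edgeR. DESeq2 gave 7 and 12, and 20 were lower with the block in TMM-scaled limma and in edgeR. Leaving out 1 library gave 13 to 33 higher, and dropping both libraries of a number 0 to 39 higher and 0 to 5 lower. At an unadjusted p under 0.05 limma had 20 higher and 6 lower without both libraries numbered 1, and 18 and 4 without both numbered 2.

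The 6 members that rose became 0 in TMM-scaled limma with and without the block, in edgeR with and without the block, and in DESeq2. At an unadjusted p under 0.05, 0 members were higher in each of these fits. By that rule, 12 of all 104 tested miRNAs were higher with TMM and 33 with TMM and the block. In edgeR 10 were higher, in edgeR with the block 31 and in DESeq2 11. Of the members, 1, let-7e-5p, fell in TMM with the block, edgeR with the block and DESeq2. The members that rose in RPM were 1 to 8 without 1 library and 0 to 8 without both libraries of a number. Relative to the family sum, the block made 3 members higher and 2 lower, edgeR with the block made 2 lower, and leaving out libraries left 0. Without 1 library, 0% to 1.98% of all tested miRNAs were then higher and 1.75% to 3.96% lower. Without both of a number, 0% to 4.35% were higher and 0% to 4.35% lower. In limma at an unadjusted p under 0.05, let-7c-5p was higher and 2 members were lower whichever 1 library was left out. By that rule 7 to 17 of the 101 to 114 tested miRNAs were higher and 11 to 18 lower. Of the partners and 3p products, 2 rose, against 5 with the block, 0 with TMM, edgeR or DESeq2, 1 higher and 1 lower with the block in TMM and in edgeR, 1 to 3 without 1 library and 0 to 3 without both of a number.

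Directions turned as follows (log2). In TMM-scaled limma with and without the block, edgeR, edgeR with the block and DESeq2, let-7b-5p had −0.037, −0.043, −0.038 and −0.080, let-7d-5p −0.098, −0.10, −0.099 and −0.14, let-7f-5p −0.16, −0.16, −0.16 and −0.20, let-7g-5p −0.16, −0.17, −0.17 and −0.20, and let-7e-5p −0.59, −0.62, −0.62 and −0.66. In DESeq2 let-7a-5p had −0.020 and miR-98-5p −0.0080. miR-100-5p had −0.19 in edgeR, −0.024 with the block and −0.21 in DESeq2, and miR-125b-5p 0.0011 with a pseudocount of 10. Leaving out 1 library gave let-7e-5p −0.059 to 0.12, miR-99a-5p −0.60 to 1.29, miR-100-5p −0.57 to 1.63 and miR-125b-5p −0.90 to 0.82. Without both libraries of a number, the values that turned were −0.0099 for let-7e-5p (numbered 2) and 0.075 for miR-125b-5p (numbered 1). Relative to the family, let-7b-5p lay at −0.024 to 0.0053 and miR-98-5p at −0.054 to 0.22 without 1 library. let-7b-5p had 0.0030 without both numbered 1 and miR-98-5p −0.025 without both numbered 2, and scaling without let-7c-5p gave let-7b-5p 0.029. Dropping both libraries of a number, edgeR with the block, edgeR relative to the family and scaling without let-7c-5p were chosen after seeing the data. The cause of these turns was not tested, except that scaling moves all miRNAs of a library together. The difference of the summed family, 0.62 in mean log2 RPM, was 0.54 to 0.71 without 1 library, and the difference in family share ran from −5.25 to 1.83 percentage points. With 3 libraries per diet, differences in single shares cannot reach an exact permutation p under 0.1.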

Other observations

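Ratios between members do not depend on how libraries are scaled. let-7d-5p over let-7f-5p, both encoded within 2261 bp on chromosome 13, was 0.504, 0.468 and 0.514 in HFHC-EV and 0.491, 0.45 and 0.485 in Chow-EV, overlapping between the diets but higher in HFHC-EV in all 3 same-numbered pairs (2-sided exact permutation p = 0.4). let-7f-5p over let-7a-5p, from the same cluster and each also from a second hairpin, was 0.839, 0.824 and 0.825 in HFHC-EV and 0.95, 0.921 and 0.955 in Chow-EV, without overlap. let-7c-5p over let-7b-5p was 1.98, 2.10 and 1.94 in HFHC-EV and 1.77, 1.89 and 1.87 in Chow-EV, also without overlap. let-7c-5p over let-7e-5p was 16.2, 15.0 and 15.9 in HFHC-EV and 9.66, 9.64 and 9.49 in Chow-EV, without overlap. Each of these 3 ratios had an exact permutation p of 0.1, the smallest possible here, and an adjusted p of 0.18 over 9 ratios. miR-98-5p over let-7f-5p, neighbours on chromosome X, was 0.0763, 0.0769 and 0.0907 in HFHC-EV and 0.0657, 0.0583 and 0.0917 in Chow-EV, overlapping (exact permutation p = 0.5).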
